A study of Mus musculus with 29 samples.

Results

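The Cyp3a genes encode cytochrome P450 enzymes of subfamily 3A, and their transcripts were followed here across 15 mouse livers from 4 diets. The family was chosen by measured values: its members were listed by symbol after the liver reads of the diets had been seen, so the diet values of the members are given as a description, with no test. The listed symbols found 8 genes of 38124 in the tables, namely Cyp3a11, Cyp3a13, Cyp3a16, Cyp3a25, Cyp3a41a, Cyp3a41b, Cyp3a44 and Cyp3a59. Cyp3a11, Cyp3a13, Cyp3a25, Cyp3a44 and Cyp3a59 were among the 12788 genes that passed the filter on low counts, while Cyp3a16, Cyp3a41a and Cyp3a41b did not pass it. One further Cyp3a symbol, Cyp3a57, had 0 to 3 reads per liver and is no member.

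CYP3A enzymes sit in the endoplasmic reticulum, chiefly of hepatocytes, and oxidise drugs, steroids and bile acids with electrons supplied by the reductase POR. Their genes are classic targets of the nuclear receptors PXR (Nr1i2) and CAR (Nr1i3), which bind DNA as partners of RXR after contact with foreign compounds or bile acids, and the liver factor HNF4A maintains their basal expression. In mouse liver Cyp3a16, Cyp3a41a, Cyp3a41b and Cyp3a44 are known as female-predominant genes, under the control of the sex-specific pattern of growth hormone.

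The mice were C57BL/6 males, purchased when 14 weeks old, whose diets began at 4 months. Groups labelled soy, fish and lard, after the fat of the diet, received 60% of ad libitum intake (8.6 kcal/day), and the control group received 95% (13.6 kcal/day), so that the restricted groups differ from control in calories and may differ in fat. Whole liver was sequenced from 4 soy mice (1065, 1073, 1141 and 1159), 4 fish mice (1067, 1123, 1124 and 1125), 4 lard mice (1100, 1101, 1102 and 1130) and 3 control mice (1095, 1120 and 1121). Hindlimb muscle of 3 soy, 3 fish, 4 lard and 4 control mice was sequenced as well. Each library is 1 mouse. In whole tissue, fewer cells of a type and less RNA per cell cannot be told apart.

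The livers held 11315231 to 21278699 exon reads, with a median of 15600900. Soy livers 1073 and 1159 stood apart: their positions on the first principal component were 69.0 and 54.5, against -18.2 to -2.01 for the other 13 livers, and 5.47% and 5.41% of their gene reads fell outside exons, against 7.90% to 8.92%. Soy comparisons of the members and the medians of the lists are therefore given with and without them. The 10 hepatocyte markers summed to 139716 to 176222 counts per 1000000 (CPM) in soy livers, 102554 to 136904 in fish livers, 131758 to 158838 in lard livers and 88637 to 117185 in control livers. CPM is taken over the exon reads of a library after scaling, and RPKM, as the authors deposited it, is exon reads per kilobase of exon and per 1000000 gene reads. Levels of different genes are compared in RPKM only.

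The 8 genes lie on chromosome 5 of GRCm38. Cyp3a13 (ENSMUSG00000029727) occupies 137892932 to 137921619, and the others form a cluster that starts with Cyp3a16 (ENSMUSG00000038656) at 145436309 and ends with Cyp3a59 (ENSMUSG00000061292) at 146113285. Between these lie Cyp3a41b (ENSMUSG00000075552, 145558675 to 145584730), Cyp3a41a (ENSMUSG00000075551, 145694060 to 145720136), Cyp3a44 (ENSMUSG00000054417, 145773983 to 145805874), Cyp3a11 (ENSMUSG00000056035, 145854426 to 145879964) and Cyp3a25 (ENSMUSG00000029630, 145977194 to 146009618). Cyp3a59 is on the plus strand and the other 7 genes are on the minus strand. The annotation gives 17 exons for Cyp3a25 and 13 for each of the others.

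The proximal promoters show how the members fall into sequence groups, and the stretches below are printed because Cyp3a11, the pair of Cyp3a25 and Cyp3a59, and the female-predominant genes differ there. The sequences are RefSeq promoters (GRCm38.p6) on the strand of the gene (for Cyp3a25 the first of 2 entries 1 base apart), from 180 to 81 bases before the start. Capitals mark a nuclear receptor half-site (AGGTCA or AGTTCA, on either strand) or the HNF4A motif CAAAGTCCA. They lie at chr5:145879935-145880034 for Cyp3a11, chr5:146009698-146009797 for Cyp3a25, chr5:145469804-145469903 for Cyp3a16, chr5:145720217-145720316 for Cyp3a41a and chr5:145805955-145806054 for Cyp3a44, all on the minus strand, and at chr5:146079078-146079177 for Cyp3a59 on the plus strand.
Cyp3a11: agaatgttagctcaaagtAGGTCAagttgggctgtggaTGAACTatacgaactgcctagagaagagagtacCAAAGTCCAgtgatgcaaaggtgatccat
Cyp3a25: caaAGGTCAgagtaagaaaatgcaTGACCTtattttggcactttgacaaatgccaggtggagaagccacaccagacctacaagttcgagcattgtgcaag
Cyp3a59: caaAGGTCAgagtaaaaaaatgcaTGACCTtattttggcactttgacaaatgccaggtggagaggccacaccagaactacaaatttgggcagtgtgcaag
Cyp3a16: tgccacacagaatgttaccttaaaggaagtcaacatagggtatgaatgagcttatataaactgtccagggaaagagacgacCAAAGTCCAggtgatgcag
Cyp3a41a: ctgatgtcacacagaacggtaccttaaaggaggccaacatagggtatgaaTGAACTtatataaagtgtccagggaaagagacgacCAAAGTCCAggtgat
Cyp3a44: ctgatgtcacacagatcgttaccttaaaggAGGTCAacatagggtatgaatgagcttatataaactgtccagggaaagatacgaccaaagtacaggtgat

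All 8 members matched a RefSeq promoter of 300 bases. Over that length Cyp3a41a and Cyp3a41b were 97.0% identical, Cyp3a25 and Cyp3a59 96.3%, and Cyp3a16 and Cyp3a44 93.4%. Cyp3a11 stood nearer to the female-predominant genes than to Cyp3a25, with 74.8% identity to Cyp3a16 and 71.2% to Cyp3a44, against 53.3% to Cyp3a25. The promoter of Cyp3a13 was 49.6% to 54.4% identical to the others. A half-site was found in Cyp3a11, Cyp3a25, Cyp3a41a, Cyp3a41b, Cyp3a44 and Cyp3a59, and 30.4% of 27025 genes have one in a promoter of the same length. The longer motif CAAAGTCCA, held by 0.555% of genes, was found in Cyp3a11, Cyp3a16, Cyp3a41a and Cyp3a41b, and Cyp3a44 differed from it at the aligned position by C7A, counted from 1 at the 5′ end of the motif. No member promoter held a pair of half-sites as a direct repeat with 3 or 4 bases between or as an everted repeat with 6 bases between, which contain half-sites by construction, and none held the STAT5 motif TTCNNNGAA, found in 9.55% of genes. Such matches describe letters in this window only.

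Cyp3a11 and Cyp3a25 made up most of the family. Averaged over the 15 livers, Cyp3a11, the most abundant member and the best known drug-metabolising CYP3A of mouse liver, had 556 RPKM and ranked 4th of 101 Cyp genes. Cyp3a25, a second hepatic form, followed with 323 RPKM (9th), Cyp3a13 with 55.0 RPKM (33rd) and Cyp3a59 with 15.3 RPKM (44th). The female-predominant genes were near the lower limit of the assay, with 0.230 RPKM for Cyp3a44, 0.063 for Cyp3a41b, 0.054 for Cyp3a41a and 0.050 for Cyp3a16. Abundant and barely detected members thus lie side by side in the cluster.

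The reads behind these levels could be assigned with unequal certainty. Of the exon reads over 15 livers, 99.1% of 350183 were unique for Cyp3a11, 100% of 43050 for Cyp3a13, 94.2% of 170084 for Cyp3a25 and 96.8% of 8055 for Cyp3a59. By contrast Cyp3a41a had 2 unique reads of 31 and Cyp3a41b had 0 of 33. In the transcript sequences, 88.4% of 100-base windows of Cyp3a41a occur in Cyp3a41b and 88.2% of those of Cyp3a41b occur in Cyp3a41a, so the split between these genes is uncertain. No 50-base window of the longest transcript of Cyp3a11 or of Cyp3a13 occurs in another gene, although 6.13% of those of Cyp3a16 occur in another transcript of Cyp3a11. Of the 50-base windows of Cyp3a25, 25.0% occur in Cyp3a59.

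Cyp3a11 was highest in fish livers, at 1.71 to 2.32 times the mean of each other diet. Its level was 1396, 1309, 822 and 1668 CPM in soy livers (mean 1299 ± 352, SD, n = 4) and 2125, 2181, 1983 and 2587 CPM in fish livers (mean 2219 ± 259, n = 4). Lard livers had 1155, 736, 865 and 1067 CPM (mean 956 ± 190, n = 4), and control livers had 969, 1289.7 and 913 CPM (mean 1057 ± 203, n = 3). All 4 fish livers exceeded all 11 other livers, and the soy, lard and control livers overlapped one another. The share of all tested genes that separate diets in this way is not given here, so nothing is read from such separations of the members.

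On the log2 scale, the fitted difference of Cyp3a11 was 1.07 ± 0.22 (SE) for fish minus control, 0.30 ± 0.22 for soy minus control and -0.15 ± 0.22 for lard minus control. Between restricted diets it was 1.21 ± 0.20 for fish minus lard, a ratio of mean CPM of 2.32, and 0.77 ± 0.20 for fish minus soy, a ratio of 1.71. For lard minus soy it was -0.44 ± 0.20. These comparisons share livers, so that the high fish values enter 3 of them. Unique reads alone gave the same ratio of 2.32 between fish and lard livers. This is no separate check, since 99.1% of the Cyp3a11 exon reads are unique. Without soy livers 1073 and 1159, fish minus soy was 0.999, soy minus control 0.07 and lard minus soy -0.22.

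**Figure D1:**
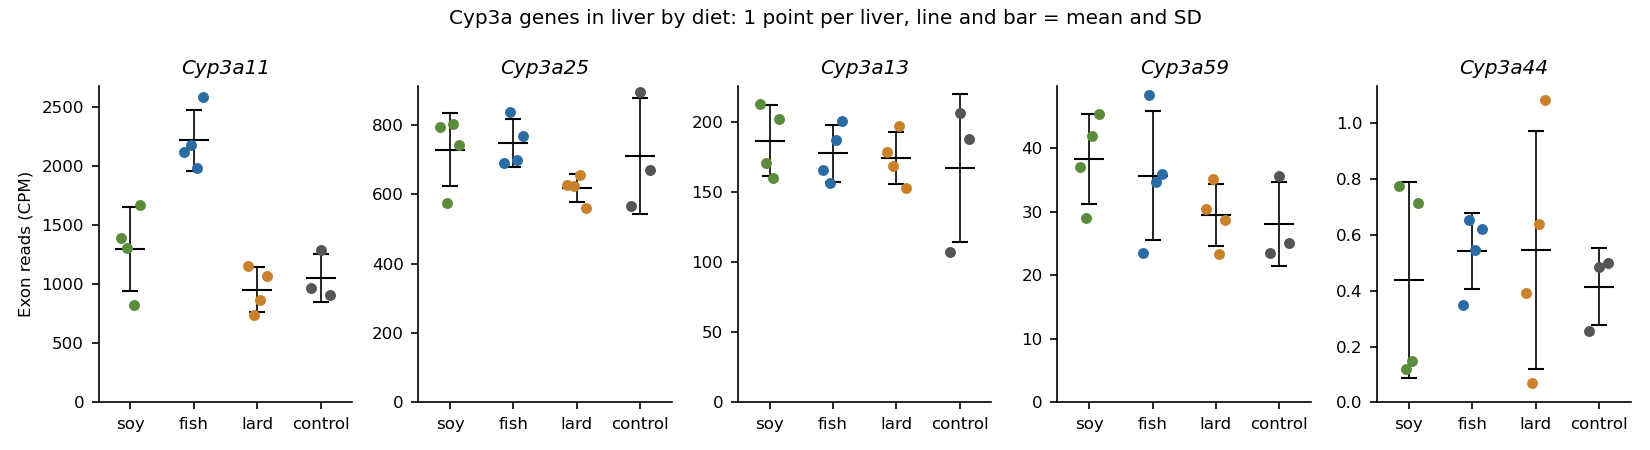
Exon reads of the 5 tested Cyp3a genes in each liver, in CPM from 0, with 1 point per liver and the mean and SD of each diet. The 4 fish livers stand above the 11 others for Cyp3a11, and for the other genes the diets overlap apart from Cyp3a25 in fish and lard livers. No share over all genes is set beside these separations.

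Set against the hepatocyte markers of the same library, Cyp3a11 was again highest in fish livers, while the order of the other diets was not that of the CPM values. Per 1000 reads of the 10 hepatocyte markers there were 17.2 to 20.7 Cyp3a11 reads in fish livers, 5.89 to 9.84 in soy livers, 4.89 to 7.67 in lard livers and 9.21 to 11.01 in control livers. On this scale all fish livers lay above every other liver, and all control livers lay above all lard livers, which overlapped them in CPM. Alb alone, at 60552 to 136599 CPM over the livers, was the larger part of the marker sum. It averaged 116079 CPM in soy and 109229 in lard livers, against 71935 in control livers (edgeR adjusted p = 0.0521 and 0.125). The scale therefore depends largely on Alb mRNA and is no plain measure of hepatocyte content. Reads of Cyp3a11 outside exons, which can come from unspliced RNA, averaged 89.3 ± 56.7 CPM in fish livers, against 28.0 ± 13.5 in soy livers, 36.0 ± 20.9 in lard livers and 55.0 ± 45.7 in control livers, with spreads that overlap. Markers of other cells differed between livers as well: skeletal muscle markers reached 2228 CPM in fish liver 1123, and Kupffer cell markers summed to 288 to 682 CPM in fish livers and 198 to 545 CPM elsewhere. Their part in the Cyp3a11 values was not tested.

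Cyp3a25 varied little between diets. It had 793, 576, 803 and 743 CPM in soy livers, 689, 838, 698 and 767 CPM in fish livers, 627, 624, 656 and 561 CPM in lard livers and 567, 894 and 669 CPM in control livers. All fish livers lay above all lard livers, by a mean of 748 ± 69.1 against 617 ± 39.9 CPM, and every other pair of diets overlapped. As for Cyp3a11, the share of all tested genes that do the same is not given, and nothing is read from it. The log2 difference was 0.28 ± 0.15 for fish minus lard, 0.07 ± 0.16 for fish minus control, 0.04 ± 0.16 for soy minus control and -0.20 ± 0.16 for lard minus control. Fish minus soy was 0.04 ± 0.14 and lard minus soy -0.24 ± 0.15. Without soy livers 1073 and 1159, soy minus control was 0.17, fish minus soy -0.09 and lard minus soy -0.37.

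Most of the reads within the Cyp3a25 gene fell outside its annotated exons. The share was 52.7%, which ranked 84th of 3423 genes with at least 10000 gene reads, where the median gene had 5.31%. Of the other members with that many reads, Cyp3a59 had 21.2%, Cyp3a13 12.9% and Cyp3a11 3.60%, while Cyp3a16 had 78.4% of only 111 gene reads. By diet the Cyp3a25 share averaged 46.9 ± 4.63% in soy livers, 54.6 ± 2.31% in fish livers, 54.7 ± 3.05% in lard livers and 53.4 ± 4.63% in control livers. The lowest shares belonged to soy livers 1073 (42.5%) and 1159 (44.1%), whose libraries also had the lowest shares over all genes.

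Cyp3a13, a CYP3A form that is also found outside the liver, was steady. Its means were 187 ± 25.1 CPM in soy livers, 178 ± 20.0 in fish livers, 174 ± 18.4 in lard livers and 167 ± 52.7 in control livers, and its lowest value, 107 CPM, belonged to control liver 1095. All 6 log2 differences lay between -0.10 and 0.16, and without soy livers 1073 and 1159 the 3 that involve soy were 0.16 for soy minus control, -0.07 for fish minus soy and -0.10 for lard minus soy. A processed pseudogene, Gm15502, lies within Cyp3a13 and overlaps none of its exons.

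Cyp3a59, whose promoter resembles that of Cyp3a25, had 37.0, 29.1, 41.98 and 45.4 CPM in soy livers and 23.6, 48.4, 34.8 and 36.0 CPM in fish livers. Lard livers had 30.4, 35.2, 23.4 and 28.7 CPM, and control livers had 23.6, 35.7 and 25.1 CPM. The diets overlapped in every pair, and the log2 differences ran from -0.38 ± 0.21 for lard minus soy to 0.45 ± 0.23 for soy minus control. With soy livers 1073 and 1159 left out these were -0.42 and 0.49, and fish minus soy was -0.15.

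The female-predominant members gave few reads in any diet. Cyp3a44 had 16, 2, 2 and 10 reads in soy livers, 6, 12, 9 and 12 in fish livers, 8, 1, 9 and 12 in lard livers and 4, 7 and 8 in control livers. Its log2 differences had standard errors of 0.59 to 0.68, so that small differences between diets were not detectable at this depth. Leaving out soy livers 1073 and 1159, soy minus control was 0.27, fish minus soy 0.12 and lard minus soy 0.05. Cyp3a16 had 0 to 4 reads per liver, Cyp3a41a 0 to 8 and Cyp3a41b 0 to 9, with 3, 3, 3 and 8 Cyp3a41a reads in fish livers and 9 Cyp3a41b reads in control liver 1121. Together these 4 genes gave 3 to 29 reads per soy liver, 15 to 22 per fish liver, 1 to 17 per lard liver and 6 to 22 per control liver, with all diets overlapping.

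Of the 5 members tested, Cyp3a11 alone passed an adjusted p of 0.05 and in fish minus lard only, a count from which nothing is read because these values chose the family. The same fit called 0.203% of all genes in fish minus lard. It called no member in the other comparisons, where it called 1.17% of genes in soy minus control, 0.383% in fish minus control, 0.508% in lard minus control, 0.0938% in fish minus soy and 0% in lard minus soy. The count of 0 in lard minus soy comes from edgeR's quasi-likelihood test, which gave 2212 genes with an unadjusted p under 0.05, and DESeq2 called 151. Across 22 alternative settings the fish minus lard difference of Cyp3a11 stayed past the threshold in 13. It was lost without each of the 8 fish and lard livers in turn, with log2 differences of 1.11 to 1.32 over all livers left out, and when the library number entered as a block. Fish minus control passed in 7 settings and fish minus soy in 3. These settings use the same values that chose the family, so they show only how the call depends on the processing.

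**Figure D2:**
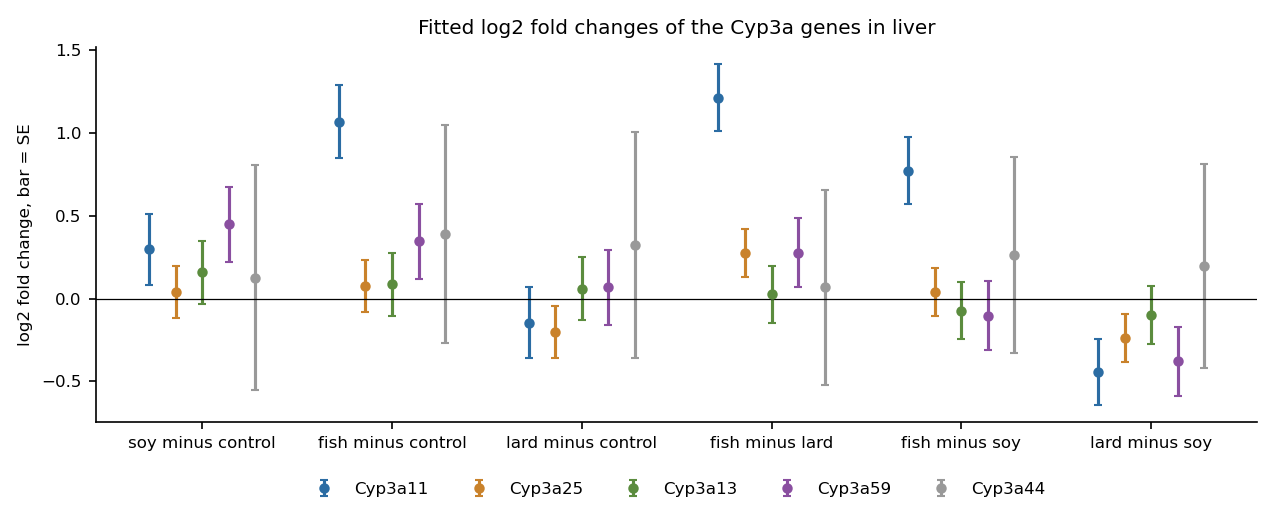
Fitted log2 difference of each tested Cyp3a member in 6 diet comparisons, with bars of 1 standard error. Cyp3a11 reaches 1.07, 1.21 and 0.77 where fish is set against control, lard and soy, Cyp3a25, Cyp3a13 and Cyp3a59 stay between -0.38 and 0.45, and Cyp3a44 has the widest bars.

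The make-up of the family followed Cyp3a11. Summed CPM of the 8 members was 2253 ± 370 in soy livers, 3181 ± 305 in fish livers, 1778 ± 176 in lard livers and 1964 ± 406 in control livers, and the fish livers (2904 to 3591 CPM) overlapped no other liver (1565 to 2659.5 CPM). In RPKM the sum was 870 ± 122 in soy livers, 1364 ± 87.0 in fish livers, 704 ± 60.3 in lard livers and 831 ± 134 in control livers. Cyp3a11 supplied 65.2% to 70.2% of this sum in fish livers, against 42.4% to 60.8% in soy livers, 44.8% to 56.7% in lard livers and 48.7% to 55.5% in control livers. The ratio of Cyp3a11 to Cyp3a25 in RPKM was 2.23 to 2.88 in fish livers, 0.876 to 1.94 in soy livers, 1.01 to 1.62 in lard livers and 1.17 to 1.46 in control livers. In soy liver 1141 alone the ratio was under 1, with Cyp3a25 above Cyp3a11.

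**Figure D3:**
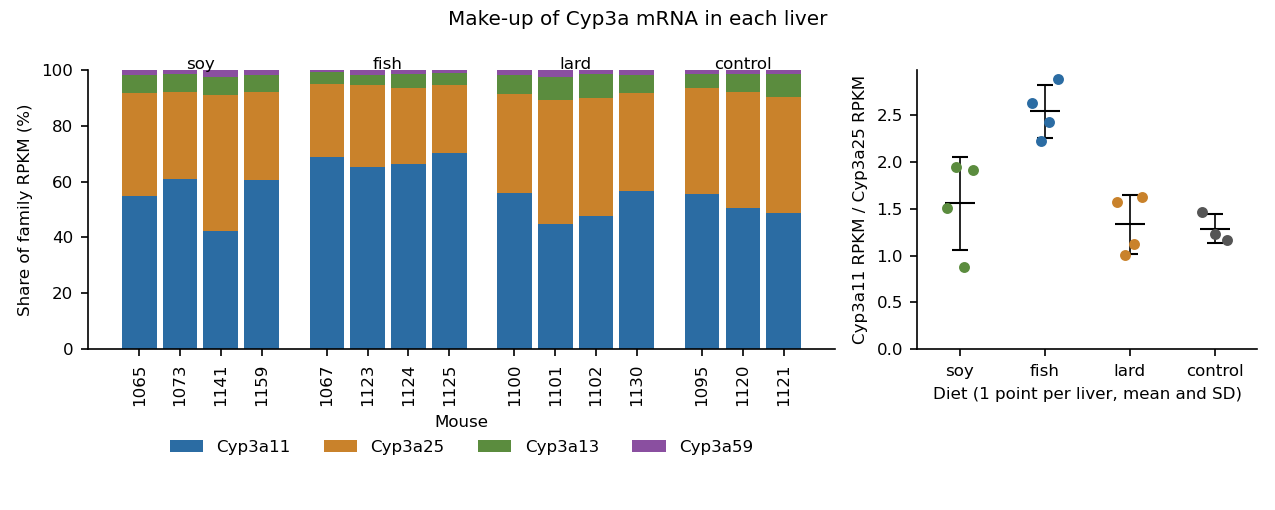
Left, share of the summed family RPKM that Cyp3a11, Cyp3a25, Cyp3a13 and Cyp3a59 take in each liver, in percent, and right, the ratio of Cyp3a11 to Cyp3a25 RPKM with the mean and SD of each diet. Cyp3a11 takes 65.2% to 70.2% in fish livers, and their ratios of 2.23 to 2.88 lie above those of all other livers.

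Genes related to the family were read from 9 lists of 193 genes, of which 181 were tested. Receptors and their partners, and electron donors and haem supply, are the lists of genes that regulate or supply it. The other lists hold further PXR and CAR targets, bile acid genes, growth hormone signalling genes, sex-biased liver genes and zone markers. These genes were not used to choose the family, so they are given with edgeR's adjusted p. The lists were drawn up with earlier results of the data known, and receptors, electron donors and other genes named for their role without passing the test were chosen after their values were seen. Past the threshold were 5 higher and 13 lower genes in soy minus control, 3 and 5 in fish minus control, 5 and 7 in lard minus control, 1 and 0 in fish minus lard, 1 and 0 in fish minus soy and none in lard minus soy. Leaving out 1 liver at a time moved the totals to 7 to 52, 2 to 9, 2 to 16, 0 to 3, 0 to 30 and 0 to 5 in the same order. At an unadjusted p under 0.05 there were 81, 53, 71, 41, 46 and 19 genes. Of the 13 genes lower in soy minus control, 11 were on the male-biased list.

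No receptor or partner factor of the xenosensor list passed in any comparison by edgeR, among 23 of 24 tested, with 1 to 3 genes at an unadjusted p under 0.05. DESeq2 called 1, lower in fish minus soy. PXR (Nr1i2) averaged 124 ± 28.7 CPM in soy livers, 123 ± 12.7 in fish livers, 127 ± 15.3 in lard livers and 117 ± 31.7 in control livers. CAR (Nr1i3) averaged 508 ± 94.3 CPM in soy livers, 573 ± 83.7 in fish livers, 444 ± 51.7 in lard livers and 523 ± 244 in control livers. The levels of both receptors overlapped between all diets, and so did those of Rxra, their binding partner, at 398, 433, 457 and 450 CPM in the same order, and of Hnf4a, at 600.0, 589, 684 and 603 CPM. Foxa2, a liver pioneer factor, had 17.0 ± 2.24 CPM in fish livers and 28.8 ± 6.69 in lard livers (adjusted p = 0.238).

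None of the 16 genes for electron donors and haem supply passed by edgeR in any comparison, with 1 to 5 at an unadjusted p under 0.05. DESeq2 called 1 higher in soy minus control and 1 lower in fish minus control. Por, the reductase that feeds electrons to CYP3A, averaged 911 ± 191 CPM in soy livers, 763 ± 42.9 in fish livers, 924 ± 63.7 in lard livers and 555 ± 243 in control livers. Its soy minus control difference was 0.72 ± 0.24 on the log2 scale (adjusted p = 0.115). Alas1, the first enzyme of haem synthesis, averaged 1155 ± 710 CPM in soy livers, 1340 ± 146 in fish livers, 1366 ± 349 in lard livers and 836 ± 220 in control livers.

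Other known targets of PXR and CAR moved in part. Among 32 tested of 34, edgeR called 1 higher and 1 lower in soy minus control. It called 1 higher in each of fish minus control, lard minus control, fish minus lard and fish minus soy. At an unadjusted p under 0.05 there were 15, 12 and 17 genes in soy, fish and lard minus control. DESeq2 called 7 higher and 3 lower in soy, 4 and 1 in fish, and 7 and 2 in lard minus control. In fish minus lard and in fish minus soy it called 1 higher and 1 lower each. The list's median log2 difference was 0.39 for soy, 0.38 for fish and 0.46 for lard minus control, against 0.00, 0.01 and 0.00 over all genes, and it was -0.02 for fish minus lard and 0.04 for fish minus soy. Leaving out soy livers 1073 and 1159, it was 0.28 for soy minus control and 0.01 for fish minus soy. Cyp2b13, a steroid hydroxylase that is also on the female-biased list, rose with all restricted diets, to 215 ± 164 CPM in soy livers, 167 ± 143 in fish livers and 132 ± 73.5 in lard livers, against 0.916 ± 0.668 in control livers. Its log2 differences from control were 7.84 ± 1.18, 7.48 ± 1.16 and 7.14 ± 1.15 (edgeR adjusted p = 0.00562, 0.00865 and 0.0115). The fish and lard calls were lost without control liver 1120 (7.03 and 6.69) or 1121 (7.54 and 7.20). Cyp2b10, the classic CAR target, stayed at 0.139 to 7.03 CPM over all livers, and Cyp2c29, also a target, averaged 447 CPM in soy livers, 596 in fish livers, 467 in lard livers and 407 in control livers.

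Abcc3, which exports bile acids and conjugates to blood, was, like Cyp3a11, higher in fish than in lard and soy livers. It averaged 146 ± 37.1 CPM in soy livers, 314 ± 28.2 in fish livers, 166 ± 24.6 in lard livers and 286 ± 13.3 in control livers. It was higher in fish than in lard livers by 0.92 ± 0.16 (log2, edgeR adjusted p = 0.0354) and higher in fish than in soy livers by 1.11 ± 0.16 (adjusted p = 0.0306). The fish livers held 294.8 to 355.5 CPM, above all soy and lard livers. Against control, however, Abcc3 fell in soy livers (-0.97 ± 0.17, adjusted p = 0.0141) and did not pass in fish livers (0.14 ± 0.17, adjusted p = 0.942) or lard livers (-0.78 ± 0.17, adjusted p = 0.0636). Over 22 alternative settings the fish minus lard call was lost in 11, among them each of the 8 fish and lard livers left out and control livers 1120 and 1121 left out, with log2 differences of 0.83 to 0.99 over single livers left out. The fish minus soy call was lost in 7, among them each fish liver left out (1.04 to 1.14), soy liver 1073 left out (1.004) and soy livers 1073 and 1159 left out together (1.05), and the soy minus control call was lost in 4, among them control livers 1120 (-0.996) and 1121 (-0.98) left out.

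**Figure D4:**
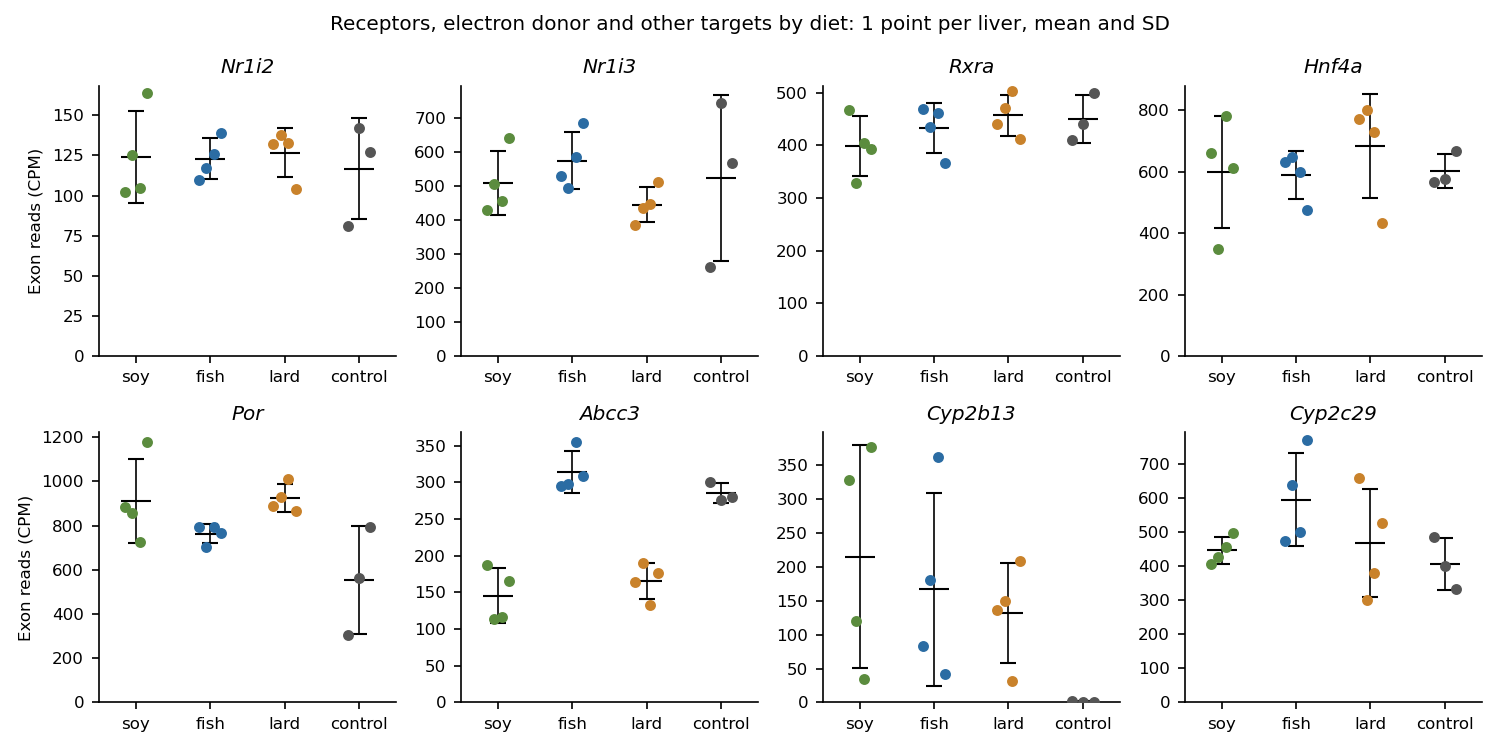
Exon reads of receptors and factors (Nr1i2, Nr1i3, Rxra, Hnf4a), the electron donor Por and 3 other targets of PXR and CAR, in CPM from 0, with 1 point per liver and the mean and SD of each diet. Nr1i2 and Nr1i3 overlap between all diets, Abcc3 in the 4 fish livers lies at 294.8 to 355.5 CPM, and Cyp2b13 is under 2 CPM in control livers.

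Bile acids are CYP3A substrates and ligands of PXR, and of 21 tested genes for their synthesis and transport 1 passed by edgeR. At an unadjusted p under 0.05 there were 8, 3 and 8 genes in soy, fish and lard minus control. DESeq2 called 1 higher and 3 lower in soy, 0 and 1 in fish, and 1 and 1 in lard minus control. In fish minus lard and in fish minus soy it called 2 lower each. Cyp46a1, the cholesterol 24-hydroxylase, fell with every restricted diet, to 9.37 ± 2.16 CPM in soy livers, 8.86 ± 1.63 in fish livers and 7.90 ± 0.861 in lard livers, against 28.6 ± 5.58 in control livers. The log2 differences were -1.61, -1.69 and -1.85 (SE 0.19 each, edgeR adjusted p = 0.00172, 0.00123 and 0.000925). Cyp7a1, the rate-limiting enzyme of bile acid synthesis, averaged 229 ± 97.0 CPM in soy livers, 279 ± 104 in fish livers, 321 ± 68.3 in lard livers and 173 ± 111 in control livers and did not pass. The bile acid importer Slc10a1 had 848 ± 112 CPM in fish livers and 1326 ± 114 in lard livers, with an adjusted p of 0.0632.

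Sex-biased liver genes outside the family bear on the female-predominant Cyp3a members, since growth hormone regulates both. Of 22 tested female-biased genes outside the family, edgeR called 5 higher in soy, 3 in fish and 5 in lard livers against control. The list medians were 1.26, 0.75 and 0.96 on the log2 scale (1.22 for soy without soy livers 1073 and 1159). DESeq2 called 11, 7 and 10 higher and 0 lower in the same order, and it called 3 lower in fish minus lard and 5 lower in fish minus soy. Sult2a7, a sulfotransferase, rose to 22.8 ± 17.7 CPM in soy and 35.4 ± 9.90 CPM in fish livers, against 1.89 ± 0.475 in control livers (edgeR adjusted p = 0.0141 and 0.00839). Fmo2 rose in lard livers, to 221 ± 37.2 CPM against 54.1 ± 27.1 in control livers (adjusted p = 0.0275). The calls of Sult2a7 in fish livers, Sult2a7 in soy livers and Fmo2 in lard livers were lost without control liver 1120 (log2 differences of 4.45, 3.82 and 2.28) or 1121 (4.11, 3.49 and 2.23). Those of Sult2a7 in soy livers and Fmo2 were also lost without control liver 1095 (3.51 and 1.66), and that of Fmo2 without lard liver 1100 (2.03) or 1101 (1.92). In these same libraries Cyp3a44, with the most reads of its group, had at most 16 reads. The difference in response between these genes and the Cyp3a members was not tested.

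Of 31 tested male-biased genes, edgeR called 11 lower in soy, 4 in fish and 6 in lard livers against control. The medians were -1.76, -1.31 and -1.72 (-2.28 for soy without soy livers 1073 and 1159). DESeq2 called 21, 4 and 15 lower in the same order, and 5 higher in fish minus soy. The urinary protein gene Mup15 fell to 1.26 ± 1.49 CPM in soy livers, 1.21 ± 1.48 in fish livers and 1.73 ± 1.51 in lard livers, against 199.9 ± 117 in control livers (edgeR adjusted p = 0.00172, 0.00123 and 0.00287), although 5.78% of its reads were unique, so that its share within the Mup genes is uncertain. Mup14 and Mup17 fell with every restricted diet too. Of their reads 14.6% and 21.6% were unique, so that their shares within the Mup genes are uncertain as well. Without control liver 1121 neither passed in fish livers (-4.27 and -4.02) or lard livers (-4.68 and -4.12). Mup14 was also lost in fish livers without control liver 1120 (-4.69) or fish livers 1123, 1124 or 1125 (-4.70 to -4.52). Without lard liver 1100 both were lost in lard livers (-5.32 and -4.72), and without fish liver 1124 Mup17 was lost in fish livers (-4.51). Both soy calls were lost without soy livers 1073 and 1159 (-6.39 and -4.81). Of 16 growth hormone signalling genes Cux2, a factor of female liver, was the 1 that passed by edgeR, in soy minus control. It is also on the female-biased list and is counted among the genes called higher there. DESeq2 called 2 growth hormone genes higher and 1 lower in soy, 1 and 0 in fish, and 1 and 1 in lard minus control. In fish minus lard it called 1 lower. By edgeR, Cux2 was the only such call. Cux2 rose in soy livers to 36.2 ± 14.7 CPM against 0.523 ± 0.0290 in control livers (log2 difference 6.09 ± 1.13, edgeR adjusted p = 0.0166). Fish livers had 17.0 ± 16.8 CPM (log2 difference 4.999 ± 1.12, adjusted p = 0.0687) and lard livers 15.2 ± 11.5 CPM (4.84 ± 1.12, adjusted p = 0.0726), and a difference between the restricted diets did not pass. The soy call of Cux2 was lost without any 1 of the control livers (6.06 to 6.14) and without soy livers 1073 and 1159 (6.44). Without soy livers 1073 and 1159 the female-biased and male-biased counts by edgeR for soy minus control were 3 and 1.

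CYP3A genes are expressed mainly around the central vein of the liver lobule. Zone markers were tested gene by gene, and neither zone list was tested as a set. Of 15 tested perivenous markers and 16 periportal markers, 0 were called by edgeR in any comparison, with 2 to 5 and 1 to 9 genes at an unadjusted p under 0.05. DESeq2 called at most 2 perivenous and 8 periportal markers in a comparison, where the 8 periportal markers were lower in fish than in soy livers. The perivenous median was 0.02 for fish minus lard and 0.11 for fish minus soy, and the periportal median was -0.33 and -0.41. Without soy livers 1073 and 1159, fish minus soy was 0.05 for the perivenous and -0.24 for the periportal median, and edgeR called 2 periportal genes higher in lard minus control and 1 lower in fish minus lard. Glul, the enzyme of the cells next to the central vein, averaged 875 ± 90.03 CPM in soy livers, 944 ± 99.5 in fish livers, 936 ± 37.6 in lard livers and 883 ± 69.7 in control livers.

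The genes whose levels over the 15 livers were most like that of Cyp3a11 were Slc25a46 (Pearson r = 0.851), Hsd17b11 (0.830), Lpl (0.797), Stbd1 (0.792) and Ppp2r2d (0.776), among 9193 genes that averaged 5 CPM or more. Without soy livers 1073 and 1159 the first 5 were Tor2a (0.892), Hsd17b11 (0.872), Nt5c3 (0.864), Slc25a46 (0.863) and Ppp2r3a (0.839). Other tested Cyp3a members had r of 0.254 to 0.425 with Cyp3a11. For Cyp3a44 the leading genes were Cd38 (0.806), Nrros (0.801), Pex26 (0.798), Nrep (0.756) and Ipo5 (0.748), of which none was among the first 5 without soy livers 1073 and 1159, where Dnajc30 led with 0.806. The livers share diets and depth, and the values are descriptions.

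In muscle of the same series the members were at the level of traces. Cyp3a11 had between 14 and 123 exon reads in a library (median 49), Cyp3a25 had 13 to 59, Cyp3a13 had 3 to 17 and Cyp3a59 had 1 to 7, and Cyp3a16, Cyp3a41a, Cyp3a41b and Cyp3a44 had 0 reads in all 14 libraries, which allows up to 3 counts in each. Hepatocyte markers summed to 175 to 586 CPM in muscle. Per 1000 reads of these markers, Cyp3a11 gave 5.87 to 17.9 reads in muscle and 4.89 to 20.7 in liver, and Cyp3a25 gave 3.89 to 7.29 in muscle and 3.69 to 7.84 in liver, so that the ranges of the tissues overlap. By diet the Cyp3a11 value in muscle was 5.87 to 9.51 for soy, 7.85 to 13.3 for fish, 7.04 to 10.2 for lard and 6.20 to 17.9 for control mice, and all diets overlapped.

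**Figure D5:**
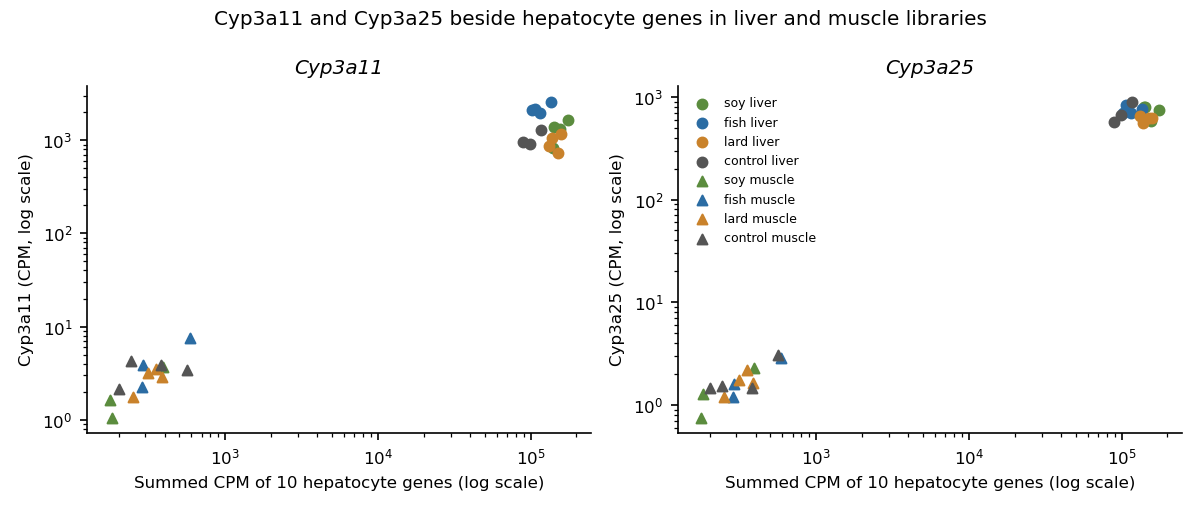
Cyp3a11 (left) and Cyp3a25 (right) in CPM against the summed CPM of the 10 hepatocyte markers, both on log axes, with circles for liver and triangles for muscle libraries, coloured by diet. The muscle libraries lie at 175 to 586 CPM of the markers, and among livers the 4 fish libraries stand highest for Cyp3a11.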

How the data were processed

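RNA was extracted with Trizol and libraries were made with an Illumina TruSeq kit, per the labels' protocols. FastQC and the build GRCm38 are named by the submitters' processing notes, and the aligner, counter, annotation release, strand setting and read length are, in the sources used here, not given. The deposited tables hold counts of total and unique exon reads and of gene reads, the authors' RPKM, and exon lengths, for pairs of groups. Libraries occur in several tables with equal values (29 repeated columns, 0 different). The authors' RPKM was recomputed from the deposited counts with no deviation. The authors left out control liver 1071 and fish muscle 1125, per the series' design text, and no muscle of soy mouse 1159 was analysed here.

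Exon read counts of the 15 livers were scaled by TMM and fitted in edgeR 4.0.16 (R 4.3.3), with filterByExpr at a minimum count of 10, the quasi-likelihood test, and Benjamini-Hochberg adjustment over 12788 genes at 0.05. All 4 diets entered 1 fit, with 11 residual degrees of freedom. CPM uses TMM-scaled totals. The fit was tested on simulated data. DESeq2 1.42.0 was an alternative, as were other scaling, no filter, unique reads, a fit of only the compared diets, a block for the library number, leaving out soy livers 1073 and 1159, and leaving out each liver.

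The members and gene lists were chosen with earlier results of these data known. The text names all members, up to 3 genes per list and comparison by smallest p among those past the threshold, or up to 2 where none passed, and 5 genes by likeness to Cyp3a11 and Cyp3a44 in log2 CPM (prior count 2). One gene that this rule names is not reported here. P-values measure the spread between mice, taken as separate animals from their numbers. Counts near 0 carry counting error, and a count of 0 was read as up to 3 counts.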

Additional observations from a re-analysis of the deposited data

Results flagged for a closer look

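Muscle libraries, which entered no comparison, held reads of 4 Cyp3a genes above 3 counts, the most that an observed count of 0 allows for. The highest library had 123 exon reads of Cyp3a11 (fish mouse 1067), 59 of Cyp3a25 (lard mouse 1100), 17 of Cyp3a13 (fish mouse 1067) and 7 of Cyp3a59 (fish mouse 1067). The hepatocyte markers of fish muscle 1067 summed to 586 CPM, the highest of the 14 muscle libraries, and their part in these reads was not tested. No value of a soy, fish or lard liver was set apart from its diet in 21 groups of 4 livers. These were tested with Dixon's criterion at the 95% level, where chance alone gives about 1 in 20. Control livers, fewer than 4, did not enter this check.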

How the results depend on the processing

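All 637 recomputed log2 differences of the members moved by less than the spread within diets. The settings reuse the same livers, so such small moves were largely fixed beforehand and are no check of the differences. The only called difference, Cyp3a11 in fish minus lard, kept its sign, while the Cyp3a11 calls themselves came and went as given in the report. Leaving out each liver in turn, Cyp3a11 ranged over 0.14 to 0.46 for soy minus control, 0.97 to 1.24 for fish minus control, -0.25 to 0.02 for lard minus control, 1.11 to 1.32 for fish minus lard, 0.61 to 0.92 for fish minus soy and -0.61 to -0.29 for lard minus soy.

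Counts of pathway genes past the threshold depended on the setting, and the cause was not tested. DESeq2 called 52 in soy minus control, 16 in fish minus control, 38 in lard minus control, 9 in fish minus lard and 24 in fish minus soy, against 18, 8, 12, 1 and 1 by edgeR. Over all genes it called 866, 165, 274, 164 and 813 in these comparisons, against 149, 49, 65, 26 and 12. Without soy livers 1073 and 1159 the pathway counts were 5 in soy minus control, 19 in lard minus control, 6 in fish minus lard and 0 in fish minus soy. With the compared diets alone they were 27 in lard minus control, 9 in fish minus lard and 0 in fish minus soy.

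Leaving out 1 liver gave 7 to 52 genes in soy minus control, 2 to 9 in fish minus control, 2 to 16 in lard minus control, 0 to 3 in fish minus lard, 0 to 30 in fish minus soy and 0 to 5 in lard minus soy. For soy minus control the count was 52 when soy liver 1065 was left out, 46 when 1141 was, and 11, 7 and 10 without control livers 1095, 1120 and 1121. For fish minus control it was 5 and 4 without fish livers 1123 and 1124, and 3 and 2 without control livers 1120 and 1121. For lard minus control it was 4 and 6 without lard livers 1100 and 1101, and 6, 6 and 2 without control livers 1095, 1120 and 1121. For fish minus soy it was 30 when soy liver 1065 was left out, 17 when 1141 was, 2 without lard liver 1102, and 0 without soy liver 1073 or any 1 fish liver. For lard minus soy leaving out soy liver 1065 gave 5 and leaving out soy liver 1141 gave 2. For fish minus lard it was 0 without any 1 fish liver, lard livers 1100, 1101 and 1130, or control livers 1120 and 1121, 3 without control liver 1095, and 2 without soy liver 1073 or 1141. Named pathway genes kept their call in 489 of 550 recomputations and lost it in 61, and Cyp46a1 and Mup15 lost none.

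The labels do not say what the library numbers mark. Deviations of same-numbered livers correlated at -0.158 to 0.155 over 21 pairs, with 3 pairs over 0.1. Livers of different numbers correlated at -0.235 to 0.274 over 63 pairs, with 10 over 0.1. Of 15 livers, 3 were closest to their own number. Same-numbered livers were thus no more alike by this measure. With few livers per diet, the check cannot decide whether livers of the same number share an effect. With the number as a replicate block the pathway counts were 20, 7, 11, 0, 1 and 0 in the order of the report, the 0 in fish minus lard being the loss of Abcc3, and the Cyp3a11 differences were 0.25, 1.03, -0.19, 1.22, 0.78 and -0.44. Depth limits Cyp3a16, Cyp3a41a, Cyp3a41b and Cyp3a44, where small changes between diets could not be seen at 0 to 16 reads per liver.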
